A study of Mus musculus with 10 samples.

Results

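Vcam1 and Icam1, the genes of the vascular and the intercellular cell adhesion molecule, were followed through 10 single-cell libraries of mouse kidney. They were picked by symbol, with earlier results of these data known, and are 2 of the 28808 genes counted in all. Both encode membrane proteins of the immunoglobulin superfamily that leukocytes grip with their integrins. Vcam1 is bound by the integrin of Itga4 and Itgb1, and Icam1 by those that pair Itgal or Itgam with Itgb2. Endothelium exposed to tumour necrosis factor or interleukin 1 places both on its surface, largely through NF-kappaB, and injured kidney tubules are known to carry them too.

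The tissue was kidney cortex of mice aged 4 weeks, measured by Drop-seq, a droplet method that tags the 3' end of each captured mRNA with a unique molecular identifier (UMI). One control library came from normal kidneys. Injured kidneys gave 1 library each on day 1, day 2 and day 4 and 2 libraries each on day 7, day 11 and day 14. The labels name no kind of injury, no strain and no sex, and they do not say whether the libraries of a day came from separate animals, so p-values measure only the spread between these libraries, which may be technical.

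Filters left 50158 cells, 3390 to 6594 per library, with a median of 1253.5 to 2664 UMIs per cell, and 58 cell barcodes occurred in more than 1 library. Cells were assigned to a class by the UMIs of marker genes, without clustering. Tubular cells numbered 1684 to 6092 per library, endothelial cells 138 to 369 and mononuclear phagocytes 51 to 1535. The gate fixes that each class holds its own markers, so their presence is no separate check of the classes. On days 1 to 7 the summed phagocyte markers were at 8438 to 22628 CPM in phagocytes and at 145 to 598 in tubular cells, where 14 of the 15 were also detected. Levels are given as CPM, the UMIs of a gene per 1000000 UMIs of a class in a library, with exact 95% Poisson intervals that cover counting error only. For a count of 0 the value that 3 counts would give is printed as its limit. Tubular transcripts were also found in the other classes, so T and NK cells, which should lack Vcam1, served as its background.

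In the mouse genome (GRCm38), Vcam1 lies on the minus strand at chr3:116109949-116129688 with 9 exons, and Icam1 on the plus strand at chr9:21015985-21028817 with 7 exons. An antisense gene, Gm43109, overlaps 1238 bases of Vcam1 including its first exon, and Gm47079 overlaps 511 bases of Icam1 including its last exon. No source used here says that reads were counted by strand, so those of each pair cannot be told apart where the genes overlap. The Vcam1 overlap does not reach its last exon, at the 3' end that Drop-seq tags, and the Icam1 overlap does. In tubular cells 14 of 19 genes in a list around NF-kappaB and IRF1 rose from control to day 7, where 17.1% of all tested genes did. The Icam1 promoter is shown for that reason, and no link of those genes to Icam1 or Vcam1 was tested. Its 250 bases before the RefSeq start lie at chr9:21015690-21015939 on the plus strand of GRCm38.p6. Capitals mark the letters searched for, GGAAATTCC, a form of the NF-kappaB site:
Icam1 promoter: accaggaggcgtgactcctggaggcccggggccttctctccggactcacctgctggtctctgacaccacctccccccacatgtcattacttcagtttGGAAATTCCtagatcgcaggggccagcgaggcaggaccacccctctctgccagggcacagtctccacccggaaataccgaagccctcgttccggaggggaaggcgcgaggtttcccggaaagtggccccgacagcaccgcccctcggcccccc
The letters occur once there, beginning 153 bases before the start, and they occur on either strand in 94 of 32851 promoters of that length, or 0.286%. Only this spelling was searched for, so the share leaves out other forms of the site and does not show how rare such sites are. The match is a description of the sequence and was not tested as a binding site. The promoter set used held only 1 of the 2 genes, with no entry for Vcam1, so no Vcam1 promoter is shown.

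In tubular cells both genes rose after injury and were highest on day 4 and day 7, and Vcam1 moved over a far wider range than Icam1. Vcam1 stood at 0.0819 CPM in the control library, which is 2 UMIs, both in 1 of 5080 cells. By day 1 it measured 40.0 CPM, by day 2 56.5 and by day 4 311. The day 7 libraries held 379 and 281 CPM, the day 11 libraries 5.05 and 3.29, and the day 14 libraries 0.721 and 1.66. All 5 libraries of days 1 to 7 lay above the 5 others, with no overlap, and all 4 late libraries lay above the control. Relative to the control, the ratio of CPM was 489 on day 1 (95% counting interval 134 to 4058), 3793 on day 4 (1050 to 31332) and 3784 for the pooled day 7 libraries (1047 to 31254). The intervals are wide because the control count is 2. On day 2 a single tubular cell held 153 of the 626 Vcam1 UMIs and the top 5 cells held 45.2%, so that level rests on few cells.

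Icam1 in tubular cells stood at 1.31 CPM in the control, from 32 UMIs, and then measured 20.9, 20.9 and 75.0 on days 1, 2 and 4. Its day 7 libraries held 72.3 and 58.2 CPM, its day 11 libraries 5.05 and 5.91, and its day 14 libraries 4.53 and 5.91. The late libraries again lay above the control and below every library of days 1 to 7, and those of day 11 and day 14 overlapped. The ratio to the control was 47.6 for pooled day 7 (33.5 to 70.0), 4.18 for day 11 (2.78 to 6.44) and 3.96 for day 14 (2.71 to 5.95). For each Icam1 UMI control tubular cells held 0.0625 Vcam1 UMIs, day 1 cells 1.91, day 4 cells 4.14 and the day 7 libraries 5.23 and 4.83. By day 14 that ratio was 0.159 and 0.282, so the balance of the 2 transcripts turned over within the series.

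**Figure D1:**
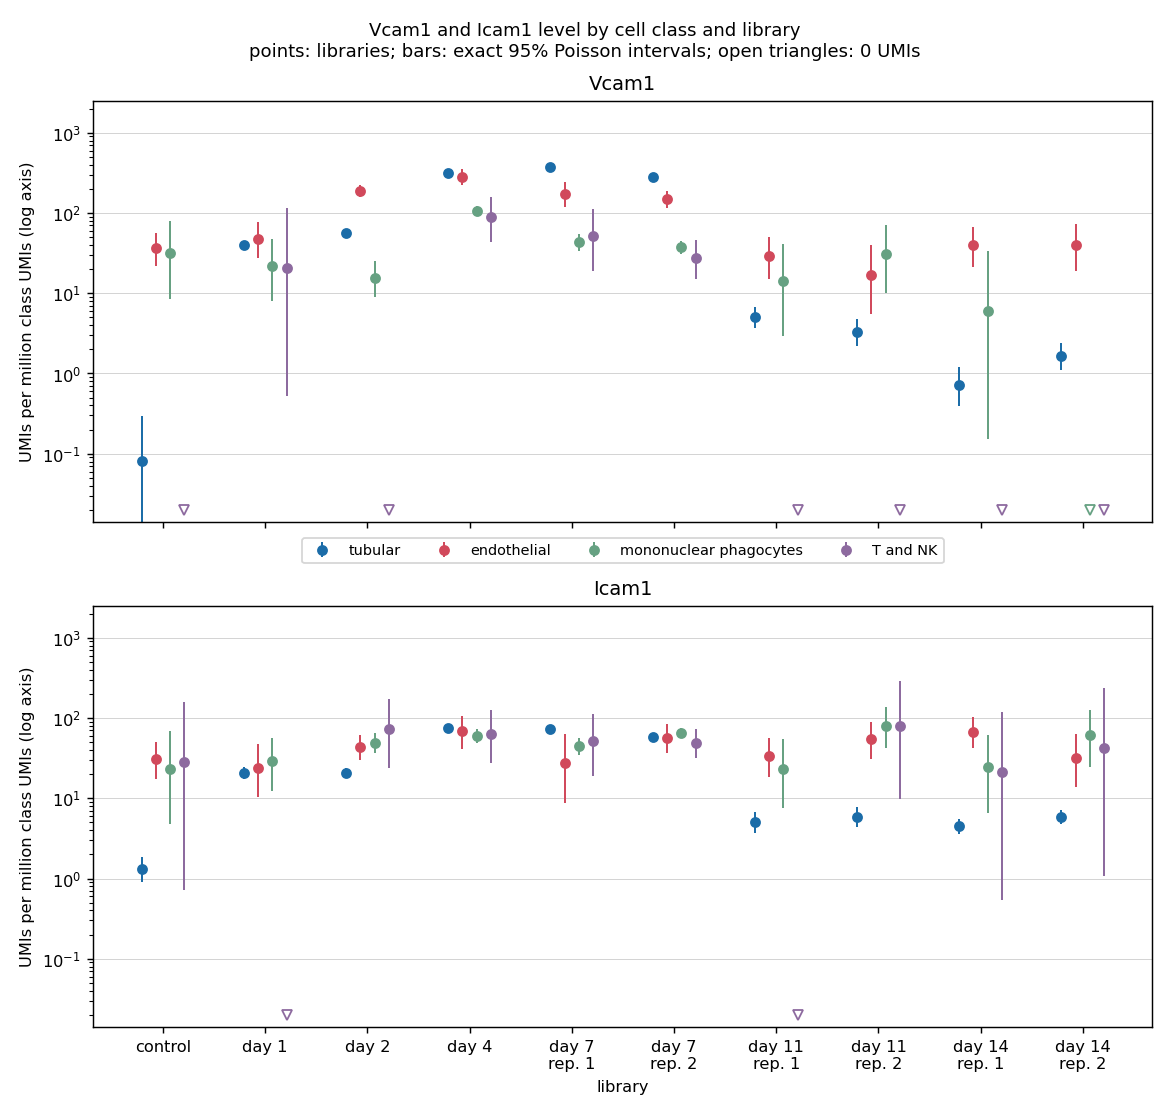
Vcam1 (top) and Icam1 (bottom) in CPM on a log axis for tubular, endothelial, phagocyte and T and NK cells of each library, with exact 95% Poisson bars and open triangles where no UMI was found. Tubular Vcam1 runs from 0.0819 CPM in the control to 379 in a day 7 library, while endothelial Icam1 stays between 23.8 and 68.0 CPM.

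Tests were made on UMIs summed per library over a class, with edgeR's quasi-likelihood fit over 15973 genes in tubular cells and Benjamini-Hochberg adjustment, where a call is an adjusted p under 0.05. The control, with 1 library, is taken to vary as the other groups do. From control to day 7, Vcam1 rose by 11.01 on the log2 scale (SE 0.62, adjusted p = 2.88e-06) and Icam1 by 4.81 (SE 0.32, adjusted p = 5.32e-06), in a comparison that called 17.1% of all genes higher. These fitted changes are relative to TMM library scaling, which lowered day 7 against the control by 0.81 on the log2 scale. The fitted size for Vcam1 also depends on the prior count, given its 2 control UMIs.

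Both genes then fell. From day 7 to day 11 the edgeR log2 change was -5.49 for Vcam1 (SE 0.32, adjusted p = 2.49e-06) and -2.76 for Icam1 (SE 0.22, adjusted p = 6.83e-06), where 21.7% of genes were called lower. From day 7 to day 14 it was -7.26 for Vcam1 (SE 0.35, adjusted p = 4.84e-07) and -2.78 for Icam1 (SE 0.21, adjusted p = 3.09e-06), where 22.3% were called lower. Both were still above the control in the late libraries. On day 11, Vcam1 was 5.52 above the control on the edgeR log2 scale (SE 0.71, adjusted p = 0.00218) and Icam1 2.05 above it (SE 0.32, adjusted p = 0.00398), where 9.81% of genes were called higher.

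On day 14 the edgeR log2 difference from the control was 3.76 for Vcam1 (SE 0.82, adjusted p = 0.0251) and 2.03 for Icam1 (SE 0.31, adjusted p = 0.00738), where 4.42% of genes were called higher. The Vcam1 call was lost without the second day 14 library, at 3.06 with an adjusted p of 0.106. It was also lost when a class needed only its own marker UMIs, at 1.77 with an adjusted p of 0.114. Between day 11 and day 14, Vcam1 fell by 1.77 more (SE 0.38, adjusted p = 0.0157), where 5.73% of genes were called lower. That call was lost without the first day 11 library (-1.44, adjusted p = 0.116) or the first day 14 library (-1.28, adjusted p = 0.109). Icam1 did not pass there, with a log2 change of -0.02 (SE 0.23, adjusted p = 0.969).

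On days 4 and 7 the highest Vcam1 levels of the 5 segment gates, beyond counting error, were in cells gated as proximal tubule, the segment that takes back most of the filtered solutes. Proximal cells held 0.138 CPM in the control, then 62.9, 74.7 and 392 on days 1, 2 and 4. They held 974 and 756 CPM in the day 7 libraries, a mean of 865 ± 154 (SD, n = 2), against 6.31 and 4.17 on day 11 and 0.763 and 1.71 on day 14. The day 7 libraries were the highest of the 10 and did not overlap any other. Cells gated as thick ascending limb, the diluting segment, held 71.7 CPM on day 4 and 56.2 and 18.0 on day 7. The proximal level was 5.47 times theirs on day 4 (4.52 to 6.69) and 17.3 (12.6 to 24.5) and 42.0 (29.99 to 60.8) times in the day 7 libraries. Principal cells of the collecting duct held 43.6 CPM on day 4 and 43.7 and 10.6 on day 7, and intercalated cells, which handle acid and base, held 62.6, 15.97 and 4.39. On day 1 the proximal interval overlapped those of distal convoluted tubule, which fine-tunes salt, at 36.6 CPM (18.3 to 65.5), and of intercalated cells at 28.1 (7.67 to 72.0). On day 2 it overlapped that of intercalated cells at 37.5 (17.1 to 71.1). On day 14 the order no longer held, with thick ascending limb at 0 and 4.4003 CPM, overlapping the proximal libraries.

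Icam1 differed less than Vcam1 between proximal tubule and thick ascending limb on days 4 and 7. In proximal cells it measured 1.65 CPM in the control, 24.6 and 26.1 on days 1 and 2, 88.4 on day 4 and 124 and 104 on day 7. In thick ascending limb it measured 0.208 CPM in the control, 45.1 on day 4 and 47.6 and 38.6 on day 7. The ratio of proximal to thick limb was 1.96 (1.53 to 2.54) on day 4 and 2.62 (1.78 to 3.94) and 2.70 (2.09 to 3.53) in the day 7 libraries, below the Vcam1 ratios with no overlap of intervals. That did not extend to all days. In the second day 14 library the Icam1 ratio was at least 3.71, from 90 against 0 UMIs, and the Vcam1 ratio 0.389 (0.160 to 1.08). On day 1 the highest Icam1 level was in distal convoluted tubule, at 49.9 CPM, with an interval that overlapped the proximal one. When the fit was made on proximal cells alone, all 12 tubular results for the 2 genes kept their direction and their side of the threshold, with Vcam1 at 11.58 from control to day 7. That fit was added after the data had been seen.

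**Figure D2:**
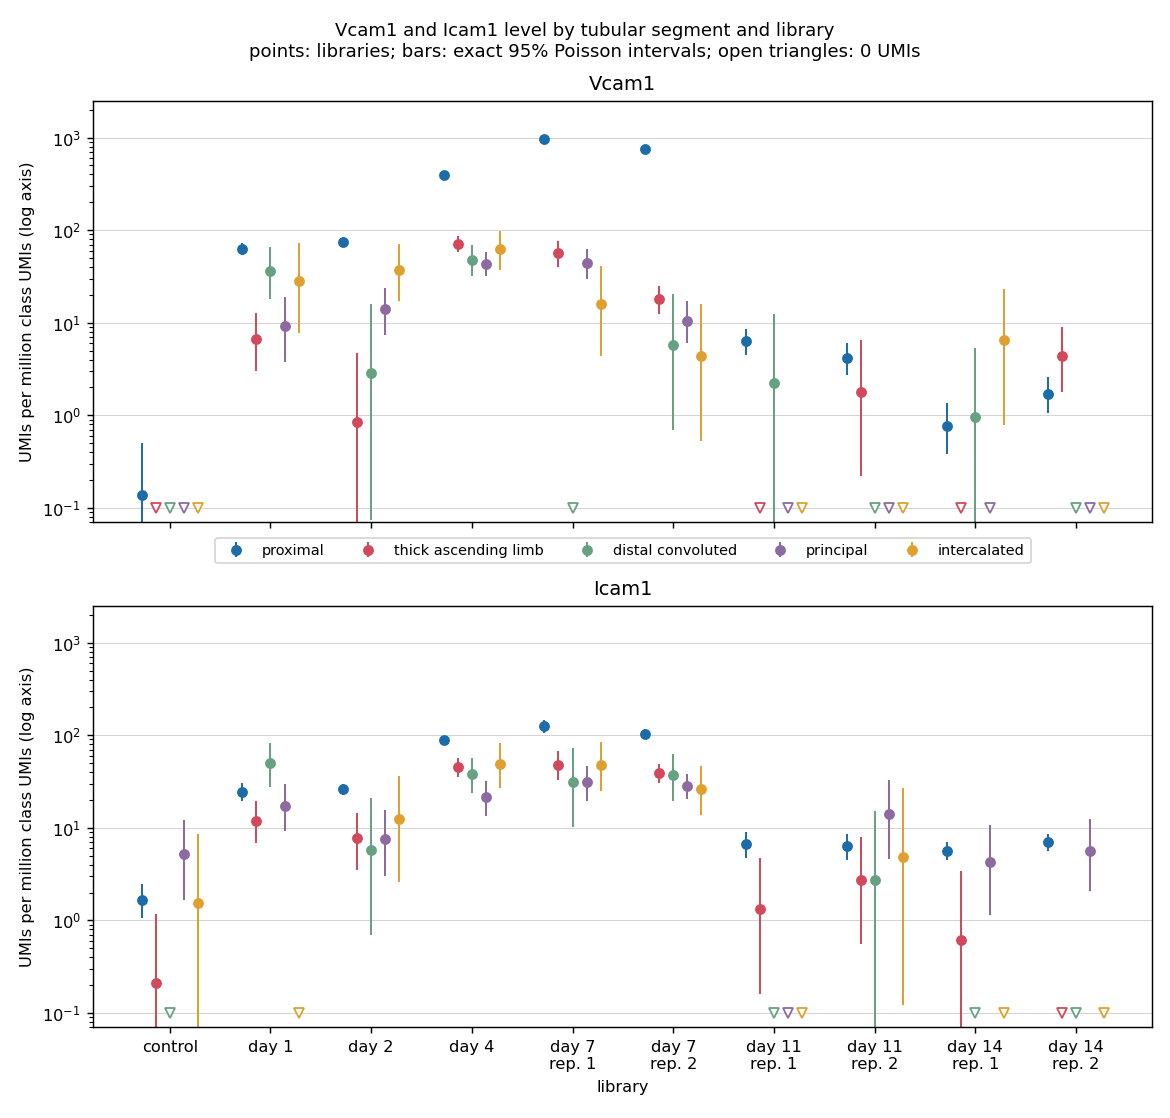
Vcam1 (top) and Icam1 (bottom) in CPM on a log axis in tubular cells of 5 segment gates by library, with exact 95% Poisson bars and open triangles where no UMI was found. Proximal Vcam1 reaches 974 CPM on day 7 where thick ascending limb reaches 56.2.

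Within tubular cells that had a proximal gate or no segment gate, Vcam1 on days 4 and 7 was highest where few, but not the fewest, proximal transcripts were found. Cells were split by the UMIs of proximal marker genes per 1000 UMIs. In the first day 7 library Vcam1 measured 319 CPM under 1 such UMI, 1439 from 1 to 5, 550 from 5 to 20 and 93.9 at 20 or more. In the second it measured 138, 985, 726 and 55.7 CPM in the same order, and on day 4 it measured 199.9, 809.6, 513 and 50.7. Cells under 1 had medians of 1289 and 1830 UMIs on day 7 and 2578.5 on day 4. Most thus fell short of the 3 UMIs of the proximal gate and can include cells of other segments. Their part in the lower level under 1 was not tested. Cells from 1 to 5 had medians of 1039 and 1927 UMIs on day 7 and 1704 on day 4. Some of these can thus also lack the 3 UMIs of the proximal gate and belong to other segments. The peak was in the 1 to 5 range in all 3 libraries. The level there was 15.96 times that at 20 or more on day 4 (13.9 to 18.4), and 15.3 (8.29 to 32.1) and 17.7 (12.6 to 25.6) times on day 7. The Icam1 ratio was 3.45 on day 4 (2.84 to 4.198) and 4.92 in the second day 7 library (2.92 to 8.95), both below the Vcam1 ratio with no overlap of intervals. In the first day 7 library it was 7.15 (1.91 to 60.1), an interval that holds the Vcam1 one. On day 2 Vcam1 measured 190.02 CPM from 1 to 5 and 218 from 5 to 20, with overlapping intervals, and 22.3 at 20 or more. The day 2 cell with the most Vcam1 UMIs lay in the 5 to 20 range, so that level leans on 1 cell. The day 2 Icam1 ratio of 0.4997 (0.160 to 1.19) did not differ from 1 beyond counting error.

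**Figure D3:**
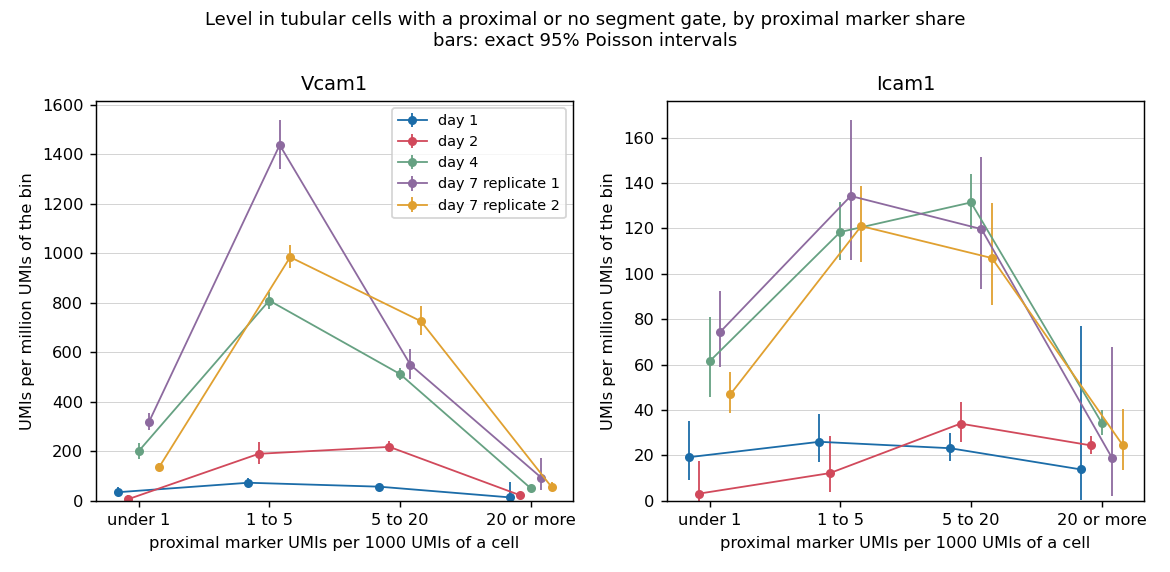
CPM of Vcam1 and Icam1 by the number of proximal marker UMIs per 1000 UMIs of a cell (4 ranges) in the libraries of days 1 to 7, with exact 95% Poisson bars. Vcam1 in the first day 7 library is 1439 CPM in the range of 1 to 5 and 93.9 at 20 or more.

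Counting cells gave a like course over time. With each tubular cell thinned to 800 UMIs, the share with a Vcam1 UMI was 0% in the control (0 of 5059 cells, where 3 cells would be 0.0593%), then 2.24%, 2.32% and 18.1% on days 1, 2 and 4. It was 17.9% and 13.9% on day 7, 0.289% and 0.232% at day 11, then 0.133% and 0.184% at day 14. Day 1 and day 2 thus lay between the late libraries and those of days 4 and 7. For Icam1 the shares were 0.0988%, 1.71%, 1.504%, 5.64%, then 5.21% and 3.99% on day 7, and 0.382% to 0.581% later. In proximal cells 36.7% and 29.9% had a Vcam1 UMI on day 7 after thinning, and 47.9% and 52.4% before it. Vcam1 in T and NK cells, the background, was at 7.41% on day 4 and at 5.56% and 1.52% on day 7 after thinning, from few cells.

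Icam1 was found more often in tubular cells with a Vcam1 UMI than in those without one on days 4 and 7. On day 7, 12.8% of thinned tubular cells with a Vcam1 UMI also had an Icam1 UMI in the first library (8.97 to 17.5, exact binomial), against 3.55% of those without (2.57 to 4.77). In the second library the shares were 10.2% and 2.999%, and on day 4 they were 10.1% and 4.66%. Havcr1, the injury molecule of proximal tubule known as KIM-1, split further. It was found in 64.0% of day 7 tubular cells with Vcam1 and in 18.4% of those without in the first library, and in 49.8% and 13.0% in the second. On day 4 these shares were 59.7% and 24.97%, on day 2 they were 28.1% and 3.83%, and on day 1 they were 54.5% and 30.5%. Split by Vcam1 after thinning, day 7 cells with and without it had like full depth. The medians were 1695 and 1653 UMIs in the first library and 2376 and 2272 in the second. Split before thinning, tubular cells with Vcam1 were deeper, at 1717 against 1310 and 2785 against 1934 UMIs. All tubular segments were pooled in these shares, and the 3 genes were not compared within a segment. The part of the segment mix in these splits was not tested.

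**Figure D4:**
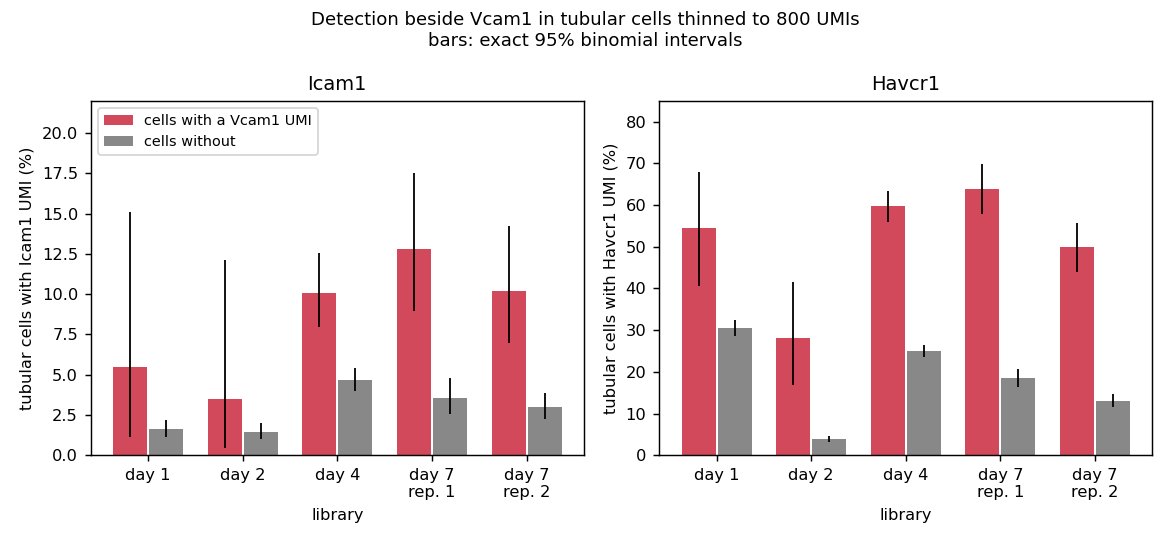
Percent of tubular cells, thinned to 800 UMIs, with an Icam1 or a Havcr1 UMI among cells with and without a Vcam1 UMI, by library of days 1 to 7, with exact 95% binomial bars. Havcr1 is found in 64.0% of cells with Vcam1 and 18.4% of cells without it in the first day 7 library.

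UMIs of both genes were found in endothelial cells of every library, where Vcam1 rose and fell again and Icam1 did not pass the test. Endothelial Vcam1 measured 36.4 CPM in the control, then 47.5, 189 and 279 on days 1, 2 and 4. It measured 174 and 148 on day 7, 28.9 and 17.0 at day 11, then 39.6 and 40.0 at day 14, from 5 to 142 UMIs per library. The libraries of days 2 to 7 lay above all others, and the late libraries lay about the control. Vcam1 rose from control to day 7 by 1.89 on the edgeR log2 scale (SE 0.39, adjusted p = 0.00458), where 1.41% of 7957 genes were called higher. It fell by 2.48 to day 11 (SE 0.36, adjusted p = 5.43e-05), where 3.9% were called lower, and by 1.80 from day 7 to day 14 (SE 0.34, adjusted p = 0.0012), where 2.12% were called lower. With DESeq2 the rise and the fall to day 14 did not pass, at adjusted p of 0.406 and 0.152.

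Endothelial Icam1 measured 30.7 CPM in the control, then 23.8, 44.0 and 68.0 on days 1, 2 and 4. It then measured 27.2 and 56.7 on day 7, 33.7 and 54.3 at day 11, then 67.1 and 32.0 at day 14. On days 2 to 7 this was 0.528 to 1.15 times the level in T and NK cells, with every interval spanning 1. The groups overlapped, and no edgeR comparison passed, with log2 changes of 0.38 from control to day 7 (adjusted p = 0.852), 0.12 to day 11 (adjusted p = 0.903) and 0.31 to day 14 (adjusted p = 0.808). Transcripts of injured tubule also rose and fell in endothelial cells, but not in step with Vcam1 on days 1 and 2. The summed level of Havcr1, Lcn2 and Krt20 in endothelial cells was 0 in the control, 93.2 to 901 CPM on days 1 to 7 and 0 to 6.79 CPM later. On day 1 it was 725 CPM with Vcam1 at 47.5, and on day 2 it was 93.2 CPM with Vcam1 at 189. Against the tubular level of the same library these markers stood at 28.3%, 17.5%, 54.4%, 27.8% and 12.4% on days 1, 2, 4 and 7. Endothelial Vcam1 stood at 119%, 335%, 89.8%, 45.9% and 52.8% of the tubular level in those libraries, a larger share in each. Phagocyte markers in endothelial cells were at 582 CPM in the control, 1478 to 2049 on day 7 and 512 to 929.9 later, and fibroblast and mural markers at 126, 139.5 to 272 and 73.2 to 120.3 CPM. The part of the tubular, phagocyte and mural transcripts in the endothelial result was not tested.

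Mononuclear phagocytes, the macrophages and their kin that carry the integrins for both molecules, gave no tested Vcam1 or Icam1 change that held when single libraries were left out. Vcam1 measured 31.3 CPM in the control, then 21.6, 15.6 and 106 on days 1, 2 and 4. The later libraries held 43.0 and 37.5 on day 7, 14.04 and 30.8 at day 11, then 6.07 and 0 at day 14, the last with 0 UMIs, where 3 would be 26.2 CPM. From control to day 7 the edgeR log2 change was 0.09 for Vcam1 (adjusted p = 0.976) and 0.98 for Icam1 (adjusted p = 0.692), where 2.6% of 6430 genes were called in either direction. From day 7 to day 11 the changes were -0.61 (adjusted p = 0.607) and 0.09 (adjusted p = 0.94996), where 4.06% were called. The counts behind the control level were 4 Vcam1 and 3 Icam1 UMIs, and what size of change this could show was not tested. On day 4, with 1 library and no test, phagocyte Vcam1 was 3.38 times the control level (1.30 to 12.5), and 1 cell held 42 of its 176 UMIs.

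From day 7 to day 14 Vcam1 in phagocytes passed with a log2 change of -3.45 (SE 0.96, adjusted p = 0.0363), where 2.88% of genes were called lower, on 1 and 0 UMIs. That call was lost in each of the 6 fits without 1 library of days 7 to 14, with adjusted p of 0.0525 to 0.149. Icam1 did not pass there (-0.48, adjusted p = 0.667). Icam1 measured 23.5 CPM in control phagocytes, 28.7, 48.8 and 59.5 on days 1, 2 and 4, 45.0 and 64.6 on day 7, 23.4 and 80.0 at day 11, then 24.3 and 61.2 at day 14, with overlapping groups. Injured-tubule markers in phagocytes were at 35.6%, 33.0%, 24.6%, 11.01% and 4.21% of the tubular level on days 1 to 7, and Vcam1 was at 53.8%, 27.6%, 34.1%, 11.4% and 13.3%. Their part in phagocyte Vcam1 was not tested. Vcam1 in T and NK cells was 88.0 CPM on day 4 and 51.5 and 27.7 on day 7, and on day 7 the phagocyte level, at 0.835 (0.364 to 2.36) and 1.36 (0.777 to 2.56) times that, did not differ from it beyond counting error. On day 4 the ratio was 1.20 (0.656 to 2.45), but 1 cell held 7 of the 11 T and NK UMIs, so that background rests on 1 cell.

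On days 4 and 7 the tubular and endothelial levels stood above the same background. Tubular Vcam1 was 3.53 times the T and NK level on day 4 (1.97 to 7.08) and 7.35 (3.37 to 20.1) and 10.2 (6.04 to 18.6) times on day 7. Endothelial Vcam1 was 3.17 (1.68 to 6.61), 3.38 (1.39 to 9.88) and 5.36 (2.99 to 10.3) times it. On day 1, with 1 T and NK UMI, neither could be told from it, at 1.94 (0.346 to 77.0) for tubular and 2.31 (0.358 to 96.7) for endothelial cells. Icam1 in T and NK cells, which can themselves express it, was 64.0 CPM on day 4 and 51.5 and 49.4 on day 7, close to the tubular level. In cells without Vcam1, the median tubular marker share relative to the library was 0.283 (endothelial) and 0.295 (T and NK) on day 4. On day 7 it was 0.254 and 0.143 in endothelial cells against 0.256 and 0.0899 in T and NK cells. Among cells without Vcam1, the second day 7 background thus held less tubular RNA than the endothelial cells did. Endothelial cells with Vcam1 had medians of 0.248 on day 4 and 0.421 and 0.123 on day 7. This was above the cells without Vcam1 in the first day 7 library only. T and NK cells with Vcam1, which were few, had 0.166 on day 4 and 0.342 and 0.148 on day 7. The part of tubular RNA in these ratios was not tested.

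The order of the classes by Vcam1 level changed over time. In the control it ran from endothelial cells (36.4 CPM) to phagocytes (31.3), fibroblasts and mural cells (6.10) and tubular cells (0.0819). Intervals overlapped between neighbours down to fibroblasts and mural cells, and theirs lay above the tubular one. On day 2 endothelial cells (189 CPM) stood above every other named class. On day 4 tubular (311) and endothelial cells (279) did not differ beyond counting error, with a ratio of 1.11 (0.890 to 1.41). On day 7 tubular cells were above endothelial cells by 2.18 (1.54 to 3.19) and 1.89 (1.49 to 2.45) times, and on day 14 endothelial cells (39.8 CPM over the 2 libraries) were first again. Fibroblasts and mural cells reached 553 CPM in the first day 7 library, where 1 cell held 41 of 50 UMIs, and 49.5 CPM in the second. For Icam1 the day 7 order was tubular cells (65.2 CPM), phagocytes (54.8), T and NK cells (50.5) and endothelial cells (41.9), with overlap between neighbours.

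Cells that passed no gate and cells in which no class led clearly also held Vcam1. Cells without a gate held 107 CPM in the control, 434 on day 4, 523 and 394 on day 7 and 77.9 to 212 later. Cells with 2 or more competing classes held 5.47 CPM in the control, 613 on day 4 and 545 and 653 on day 7, and they contributed 14.5% to 30.6% of the Vcam1 UMIs of the libraries of days 2 to 7. Of these cells, 377 of 397 on day 4 and 328 of 345 and 169 of 203 on day 7 passed the tubular and phagocyte gates. They held 647, 584 and 765 CPM of Vcam1. Plac8 alone gave 61.9%, 12.2% and 45.0% of their phagocyte marker UMIs. How many of them were tubular cells was not tested, and the tubular levels leave them out. Tubular cells contributed 52.6% to 79.2% of the Vcam1 UMIs of each library of days 1 to 7. They were 75.6%, 68.2% and 71.7% of the cells on days 1, 2 and 4, and 49.0% and 46.3% on day 7. Those Vcam1 shares thus follow the number of tubular cells too and do not measure enrichment. In the control, with 52 Vcam1 UMIs in all, they contributed 3.85% and endothelial cells 36.5%.

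The change from day 7 to the late days differed between classes. In a joint edgeR fit of the 6 libraries of days 7, 11 and 14, with each library as a block, the drop of Vcam1 in tubular cells exceeded that in endothelial cells by 4.32 on the log2 scale (SE 0.39, adjusted p = 7.99e-26), where 6.12% of 13218 genes were called in that direction. For Icam1 the excess was 3.09 (SE 0.42, adjusted p = 2.22e-11). Icam1 itself passed in neither endothelial cells nor phagocytes from day 7 to the late days. Against phagocytes the excess was 4.404 for Vcam1 (SE 1.41, adjusted p = 0.0211) and 2.62 for Icam1 (SE 0.46, adjusted p = 5.03e-07), where 6.26% of 13813 genes were called in that direction. These p-values rest on a spread shared across all genes. The Vcam1 difference from phagocytes was lost without the first day 7 library (4.10, adjusted p = 0.081), the second day 11 library (4.01, adjusted p = 0.056) or the first day 14 library (0.45, adjusted p = 1).

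The ligands that work beside Vcam1 and Icam1, and the pathway around them, were read from 5 gene lists in the same tubular fit, where 35.5% of genes were called from control to day 7, 17.1% higher and 18.4% lower, and the median change of all genes was 0.05 on the log2 scale. Of 9 tested adhesion ligands, 4 rose and 1 fell, with a median of 1.01. The risers were Madcam1 (5.39), Mcam (2.38), Pecam1 (2.17) and F11r (0.92), and Alcam fell by 0.96. Of 13 leukocyte-side receptors, 3 rose and 1 fell, with a median of 1.49. They were the hyaluronan receptor Cd44 (8.26), the selectin ligand Selplg (3.88) and the integrin chain Itgb2 (3.47), while Tln1, the linker of integrins to actin, fell by 0.60. Cd44 in tubular cells, in CPM after TMM scaling, was 0.302 in the control, 88.3 on day 4, 78.0 and 112 on day 7 and 0.422 to 2.44 later, so its libraries of days 1 to 7 did not overlap the rest. The fitted sizes for Cd44, Madcam1, Selplg and Itgb2 rest on a few control UMIs and depend on the prior count.

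Proteins that anchor Icam1 and Vcam1 to actin and tetraspanin patches or cut them from the surface were 7 genes, of which 5 rose and 1 fell, with a median of 1.12. Moesin, Msn, which binds the tails of both, rose by 1.91, and the tetraspanins Cd9 and Cd151 by 1.76 and 1.29, while Rdx fell by 1.39. Of 12 tested genes that induce adhesion molecules, which are cytokines, their receptors, toll-like receptors and the adaptor Myd88, 10 rose and 1 fell, with a median of 1.82. Among them were Tnf (5.81), Tlr2 (5.28), Tnfrsf1b (4.98), a receptor for Tnf, and Tlr4 (4.21). Tnf itself was scarce, at 0.101 CPM after TMM scaling in the control and 5.95 and 6.41 on day 7. On that scale Tlr2, Tlr4 and Tnfrsf1b stood at 0.302, 0.252 and 0.0503 CPM in the control. The fitted sizes for them and for Tnf thus rest on a few control UMIs and depend on the prior count.

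In the list around NF-kappaB and IRF1, factors known to switch on adhesion molecules, 14 of 19 genes rose and 1 fell, with a median of 1.68. Relb (3.68), Birc3 (3.64), Nfkbie (3.39) and Bcl3 (3.003) rose most, and Chuk fell by 2.14. Nfkbia, the inhibitor that NF-kappaB itself induces, was at 58.8 CPM after TMM scaling in the control, 335 on day 4, 352 and 344 on day 7, 134 and 117 at day 11, then 75.5 and 72.7 at day 14. Its late libraries lay between the control and the libraries of days 1 to 7. From day 7 to day 11, where 45.2% of genes were called, 15 of the 19 fell and 2 rose, and 9 of the 12 tested inducing genes fell and 0 rose. From control to day 14, 7.84% of genes were called, with 4.42% called higher. No member of these 5 lists was called higher there, and Alcam alone was called, with a log2 change of -1.68 (edgeR adjusted p = 0.011). Vcam1 and Icam1 were called higher, though the Vcam1 call was lost in some fits. Their difference from the lists was not tested.

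Of the 41 list calls, 2, Tln1 and Il6st, had the opposite sign in raw CPM, before TMM scaling. Transcripts of other classes moved with these lists in the tubular sums. The summed phagocyte markers there were 22.5 CPM in the control, 417 to 598 on day 7 and 35.5 to 93.5 on days 11 and 14, against 19821 to 22628 in day 7 phagocytes, with 14 of 15 markers detected. The T and NK markers were 9.38, 12.0 to 25.2 and 5.17 to 11.02 CPM in the same order, with all 9 detected on day 7. Fibroblast and mural markers were at 10.9 CPM in the control, 54.5 to 123 on day 7 and 7.23 to 27.3 later, and endothelial markers at 27.6, 35.9 to 67.0 and 21.9 to 53.9, and for Mcam and Pecam1, which those cells express, their part was not tested. Segment markers in the tubular sums moved as well. Proximal markers were at 15626 CPM in the control, 2582 to 3298 on day 7 and 20785 to 24817 later. Principal cell markers were at 1164, 3400.3 to 3431 and 1229.9 to 1625 CPM. Cells gated as proximal held a median of 63 proximal marker UMIs in the control and 11 and 16 on day 7, not scaled for depth. A change in the makeup of the tubular cells and a loss of these transcripts within proximal cells were thus not separated. The lists were not refitted on proximal cells alone, so the part of these shifts in their changes was not tested. For Cd44, Itgb2, Selplg, Tnf and the toll-like receptors, which leukocytes also express, the part of transcripts from other classes was not tested. On day 7 the tubular level was 8.80 and 7.49 times the phagocyte level for Vcam1, and 1.61 (1.23 to 2.12) and 0.9004 (0.766 to 1.06) times it for Icam1.

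**Figure D5:**
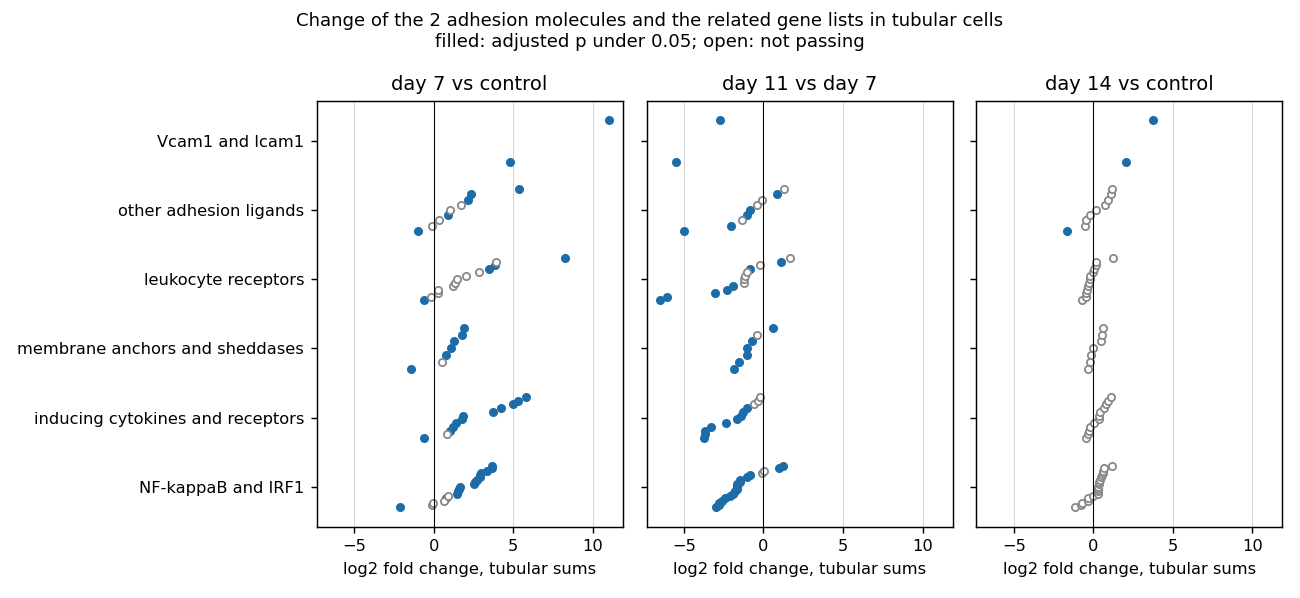
Fitted log2 fold change in tubular sums of Vcam1, Icam1 and the members of 5 gene lists, in 3 panels (day 7 against control, day 11 against day 7, day 14 against control), with filled points where the edgeR adjusted p is under 0.05. Vcam1 lies at 11.01, -5.49 and 3.76 and Icam1 at 4.81, -2.76 and 2.03.

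Over the 10 tubular sums, the genes whose log2 CPM ran most like that of Vcam1, among 4366 well-expressed genes, were F3 (Pearson r 0.99), Vmp1 (0.98), Nfkbia (0.98), Tagln2 (0.97) and Plin3 (0.97). For Icam1 they were Trp53 (0.99), Vmp1 (0.98), Cxcl16 (0.98), Dbnl (0.98) and F3 (0.97), and the 2 members ran together at 0.98. These are descriptions over 10 points that share their library, depth and time course. Of the rest of the Icam family, Icam2 was at 0.146 to 2.202 CPM after TMM scaling in tubular cells and did not pass from control to day 7 (log2 change 0.32, edgeR adjusted p = 0.836). Icam4 and Icam5 had 1 to 12 and 1 to 3 UMIs per library over all cell barcodes.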

How the data were processed

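Drop-seq UMI counts per gene and cell barcode were used as the authors deposited them. The submitters' processing notes name Bowtie2 2.2.7 and the mouse build mm10, and the counting rule and its use of strand are not given in the sources used here. The members and gene lists were chosen with earlier results of these data known. The 10 tables held 64803 barcodes and 173806985 UMIs (7091848 to 31632205 per library). Barcodes needed 500 UMIs, 500 genes and at most 50% mitochondrial UMIs, and the 5% with the highest Scrublet score (scanpy 1.11.5) per library were removed, since its automatic threshold marked at most 0.111%. The gene filter removed 5362 and 5424 barcodes in the day 11 libraries.

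A class needed 3 UMIs from 2 of its markers (129 marker genes in all). Tubular transcripts in most droplets let most endothelial cells pass the tubular gate as first written, so after seeing the data tubular cells also needed 0.2 of the library-wide tubular marker share, and where several classes passed, the leader needed 3 times the enrichment of the next. Shares of cells used cells thinned to 800 UMIs. UMIs summed per library and class were tested with edgeR 4.0.16 in R 4.3.3 (TMM scaling, quasi-likelihood, all groups in 1 fit, at least 10 cells per library), with DESeq2 1.42.0 as an alternative. With 3 residual degrees of freedom, spread was shared across genes. The SE is the log2 change divided by the square root of F, so it restates the test. On simulated day 7 against control data over 15973 genes, 99% of 4-fold and 100% of 16-fold changes were recovered. The 200 genes changed there all had a mean above 5 CPM, so scarcer genes were not covered. Named genes are the 2 members, up to 4 called members of a list and those that changed the other way, the 5 most alike in pattern, and Havcr1. Replicate numbers did not pair the samples, with correlations of deviations of 0.055, -0.036 and -0.047. Sequences came from RefSeq. Python 3.11.15, numpy 2.4.6, scipy 1.17.1 and matplotlib 3.10.9 were used.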

Additional observations from a re-analysis of the deposited data

Results flagged for a closer look

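In 4 tests the change from day 7 to days 11 and 14 differed between cell classes, and each was a test of the difference itself. The tubular change lay below the endothelial one by 4.32 on the log2 scale for Vcam1 and by 3.09 for Icam1. It lay below the phagocyte one by 4.404 for Vcam1 and by 2.62 for Icam1. For Icam1 no fall was called in endothelial cells or phagocytes, so a tubular fall stands there against no detected change. Behind them, tubular Vcam1 went from 379 and 281 CPM on day 7 to 5.05 or less on the late days, and endothelial Vcam1 from 174 and 148 CPM to 17.0 to 40.0. Phagocyte Vcam1 was at 43.0 and 37.5 CPM on day 7 and at 0 to 30.8 later, from 0 to 5 UMIs. The Vcam1 difference from phagocytes was lost in 3 of the 6 fits that left out 1 library, falling to 0.45 with an adjusted p of 1 without the first day 14 library. Tubular Icam1 went from 72.3 and 58.2 CPM to 4.53 to 5.91, while endothelial Icam1 was at 27.2 and 56.7 CPM on day 7 and at 32.0 to 67.1 later and phagocyte Icam1 at 45.0 and 64.6 CPM and at 23.4 to 80.0.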

How the results depend on the processing

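Of 492 alternative values over 39 results, 443 kept their direction, their side of the threshold and, for shares, their size. Without thinning, the day 7 share of cells with Vcam1 was 23.8% in tubular cells and 6.17% in phagocytes, and that with Icam1 was 13.1%, 8.98% and 4.97% in tubular cells, phagocytes and endothelial cells. The strict gate gave an endothelial Icam1 share of 2.19%. For the lists from control to day 7, DESeq2 called 9 inducing genes against 11 in edgeR. It called 4 adhesion ligands against 5 and 3 leukocyte receptors against 4, and the other lists kept their counts. Tubular Icam1 from day 11 to day 14, near 0, turned to 0.047 with no filter on low counts, 0.046 at 25% mitochondrial UMIs, 0.019 with doublets kept and 0.14 with the tubular floor at 0.4, and ran from -0.22 to 0.15 when 1 library was left out. Tubular Vcam1 from control to day 14 was 1.77 with the plain gate and 3.06 to 4.24 with 1 library left out, and from day 11 to day 14 it was -2.46 to -1.28.

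In phagocytes, Icam1 from day 7 to day 11 was -0.072 with no filter, -0.10 with the leading class at 2 times the next and -0.93 to 0.76 with 1 library left out. From control to day 7, Vcam1 was -0.39 (strict gate), -0.14 (mitochondrial limit) and -0.42 (doublets kept), and Icam1 -0.17 (doublets kept) and -0.48 (plain gate). Vcam1 from day 7 to day 14 missed the threshold at -3.15 (strict gate), -3.33 (mitochondrial limit), -3.57 (Plac8 left out of the markers), -3.46 (DESeq2), -3.51 (only those days fitted) and -8.20 to -2.84 (1 library left out), and Icam1 ran from -1.34 to 0.25. With the replicate number as a block, a pairing the data did not bear out, it was -3.45 with an adjusted p of 0.058, and the block changed no other call. In endothelial cells Icam1 from day 7 to day 11 was -0.011 with doublets kept, and with 1 library left out the Icam1 changes were -0.21 to 0.94 (day 11), -0.46 to 0.63 (from control to day 7) and -0.31 to 1.13 (day 14). With DESeq2 endothelial Vcam1 missed at 1.88 and -1.81. The Vcam1 difference between tubular cells and phagocytes was 4.38 without the library block and missed, and 0.45 to 4.84 with 1 library left out. The causes were not tested. The plain gate, the tubular floor of 0.4, the leading class at 2 times, the marker Plac8 left out and proximal cells alone were chosen after seeing the data. Under the plain gate the endothelial comparisons and the Vcam1 phagocyte comparisons could not be fitted. Phagocyte Vcam1 rests on 0 to 6 UMIs in 6 of 10 libraries, those with 51 to 185 phagocytes.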
